A study of Mus musculus with 15 samples.

Results

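The nuclear-encoded subunits of the mitochondrial respiratory chain were followed in mouse lungs after mechanical ventilation with or without inhaled hydrogen sulfide (H2S). The set held the genes whose symbols begin with Ndufa, Ndufb, Ndufc, Ndufs, Ndufv, Uqcr or Cox4 to Cox8, together with Sdha, Sdhb, Sdhc, Sdhd and Cyc1, and without the assembly factors named Ndufaf. On the arrays 78 of 28361 transcript clusters carried 1 such symbol. Where a gene had several clusters, the cluster with the highest mean log2 intensity over the 15 arrays stood for it. This gave 66 genes of 19934 genes with 1 symbol. They comprised 34 genes of complex I, 4 of complex II, 9 of complex III and 17 of complex IV, and 2 related genes outside these complexes, Ndufa4l2 and Cox7a2l. Ndufa4 was counted with complex IV, to which its protein belongs. No difference between groups was used to choose the members.

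Total RNA of the inferior right lung lobe was measured on 1 whole-transcript array per mouse in 15 male C57BL/6N mice of 24 to 26 g. All mice had been anaesthetised with ketamine (90 mg/kg) plus acepromazine (1 mg/kg), and all carried an arterial line and a tracheal tube. There were 3 groups of 5 mice. The H2S-ventilated mice were ventilated for 6 h with synthetic air containing 80 ppm H2S, with tidal breaths of 12 ml/kg and an end-expiratory pressure held at 2 cm H2O. The air-ventilated mice received the same ventilation with synthetic air alone. The control mice were not ventilated and breathed synthetic air on their own for 6 h. Age was labelled only as body weight. Mice are named here by the numbers in their labels, such as 4_8. Values are intensities on a linear scale, and differences are log2 fold changes. P-values measure the spread between these mice. Intensities of different probes cannot be set against each other, so only the same gene was compared between mice.

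The respiratory chain in the inner mitochondrial membrane passes electrons to oxygen and pumps protons that drive ATP synthesis. Complex I takes electrons from NADH and complex II takes them from succinate, and both hand them to coenzyme Q. Complex III passes them on to cytochrome c, and complex IV, cytochrome c oxidase, reduces oxygen. Nearly all subunits are encoded in the nucleus and a few in mitochondrial DNA. Sulfide bears on the chain in more than one way, since its oxidation in mitochondria feeds electrons to coenzyme Q and a high level of it inhibits complex IV. In lung the chain is present in nearly all cell types, and several subunits of complex IV have isoforms particular to lung, to heart and skeletal muscle or to testis.

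The promoters of the chain are classical targets of nuclear respiratory factor 1 (NRF1), of the GA-binding protein (GABP, also called NRF2) and of YY1. RefSeq promoter windows of mouse build GRCm38.p6, 250 bases before to 50 bases after a start, were matched through the gene ID for 52 of the 66 genes, in 54 windows. Each window was searched on both strands for GCGCATGC (NRF1), CCGGAAG (GABP), AAGATGGC (YY1) and TCAAGGTCA (oestrogen-related receptor, ERR). The NRF1 letters stood in 7 windows (13.0%), against 2.71% of all 32851 windows and 3.51% of the protein-coding windows. The GABP letters stood in 11 windows (20.4%), against 8.86% and 11.6%. The YY1 letters stood in 7 windows (13.0%), against 2.75% and 3.05%. All 7 belonged to genes of complex I, which made up 31 of the 52 genes with a window. At least 1 of these 3 motifs was found in 22 windows (40.7%), against 13.3% of all windows and 16.7% of the protein-coding ones. The ERR letters stood only in the window of Sdhd, which is 1.85% of the members' windows, against 0.423% of all windows. In 4 windows more than 1 of the motifs occurred, and 0 hits of different motifs overlapped. A match is a description of letters and not a site of binding.

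6 promoters are shown here over 170 bases before to 30 bases after the start, 5′ to 3′, with the motif letters in capitals. Ndufa6, which had the highest log2 fold change of complex I with H2S, carried the NRF1 letters, Ndufc1 the YY1 letters, and Sdhb and Cox6a1 both the NRF1 and the GABP letters. In Cox6a1 the NRF1 letters of both strands overlapped each other. Cox7a1 and Cox8b, muscle isoforms that stood out in 1 mouse, held 0 of the 4 motifs in their windows. This was not particular to them, since only 22 of the 52 genes held any of the NRF1, GABP or YY1 letters. The common subunits Cox5a, Cox5b, Cox7a2 and Cox7b also lacked all 4 motifs.
Ndufa6 (chr15:82354262-82354461, minus strand): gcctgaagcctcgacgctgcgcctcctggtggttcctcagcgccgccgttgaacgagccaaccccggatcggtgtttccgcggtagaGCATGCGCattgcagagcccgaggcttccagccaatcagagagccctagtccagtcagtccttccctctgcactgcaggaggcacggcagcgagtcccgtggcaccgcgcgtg
Ndufc1 (chr3:51408926-51409125, minus strand): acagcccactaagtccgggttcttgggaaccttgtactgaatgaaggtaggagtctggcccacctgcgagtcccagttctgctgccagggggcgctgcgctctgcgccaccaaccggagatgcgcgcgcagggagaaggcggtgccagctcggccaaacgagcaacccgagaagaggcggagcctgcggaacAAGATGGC
Sdhb (chr4:140961101-140961300, plus strand): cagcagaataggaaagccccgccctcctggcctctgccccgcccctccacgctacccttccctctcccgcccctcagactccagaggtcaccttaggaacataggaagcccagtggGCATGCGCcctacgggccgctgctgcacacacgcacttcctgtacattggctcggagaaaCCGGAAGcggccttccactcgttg
Cox6a1 (chr5:115348929-115349128, minus strand): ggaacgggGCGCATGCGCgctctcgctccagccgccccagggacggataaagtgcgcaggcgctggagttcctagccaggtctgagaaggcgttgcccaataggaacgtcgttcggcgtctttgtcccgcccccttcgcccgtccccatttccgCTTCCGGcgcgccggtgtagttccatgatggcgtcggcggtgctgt
Cox7a1 (chr7:30184001-30184200, plus strand): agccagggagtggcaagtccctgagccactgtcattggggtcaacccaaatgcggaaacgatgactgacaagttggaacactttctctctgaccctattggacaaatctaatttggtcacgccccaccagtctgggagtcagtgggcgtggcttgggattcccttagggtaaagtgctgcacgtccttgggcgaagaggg
Cox8b (chr7:140900417-140900616, minus strand): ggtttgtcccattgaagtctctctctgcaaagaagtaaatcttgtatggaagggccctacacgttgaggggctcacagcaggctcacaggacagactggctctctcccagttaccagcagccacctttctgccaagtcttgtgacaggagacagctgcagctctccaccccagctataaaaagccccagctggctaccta

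The control and H2S-ventilated groups each held 1 mouse in which most members were high. Over the 66 members, the median deviation from the control mean, in log2, was 0.04, -0.06, -0.10, 0.21 and -0.12 in the H2S-ventilated mice 1_4, 15_20, 27_28, 4_8 and 9_12. It was -0.005, -0.05, -0.004, -0.05 and -0.002 in the air-ventilated mice 11_6, 12_10, 34_22, 35_26 and 6_2, and -0.04, -0.04, 0.20, -0.10 and -0.03 in the control mice 12_21, 13_25, 5_1, 6_5 and 7_9. Intensities of single genes are listed throughout in the same order of mice within each group. H2S-ventilated mouse 4_8 was the highest of its group for 51 of 66 members and control mouse 5_1 for 53 of 66. Over all 28361 clusters they were the highest for 8084 and 7804. H2S-ventilated mouse 9_12 and control mouse 6_5 were the lowest of their groups for 32 and 28 members, and for 7205 and 6270 of all clusters. The air-ventilated mice lay close together, and each was the highest of its group for 10 to 19 members. By complex, mouse 4_8 deviated by 0.16 in complex I, 0.24 in complex II, 0.39 in complex III and 0.26 in complex IV. Mouse 5_1 deviated by 0.20, 0.11, 0.23 and 0.19 in the same complexes.

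**Figure D1:**
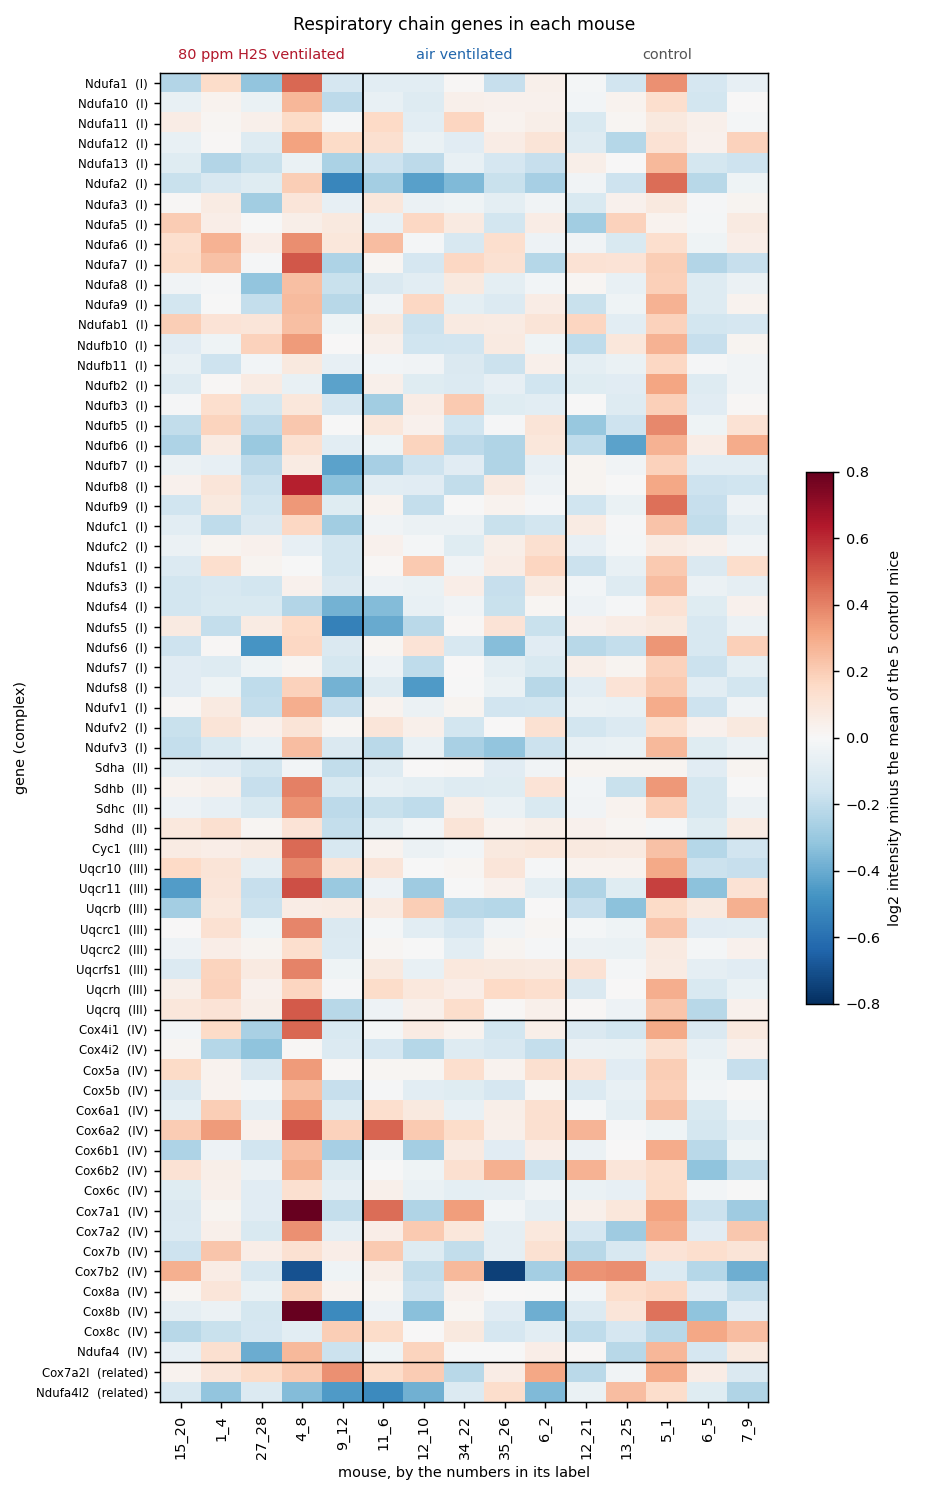
Log2 intensity of 66 respiratory chain genes (rows, by complex) in 15 mice (columns, by group), minus the mean of the 5 control mice for that gene, with red above and blue below it. Values beyond 0.8 take the end colour. The columns of H2S-ventilated mouse 4_8 and control mouse 5_1 are red in most rows. They were the highest of their groups for 51 and 53 of 66 genes, and for 8084 and 7804 of all 28361 clusters.

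The same mice were high in other abundant gene sets. Mouse 4_8 was the highest of its group for 13 of 17 ATP synthase subunits, 49 of 77 mitochondrial ribosomal proteins and 41 of 54 cytosolic ribosomal proteins. Mouse 5_1 was the highest for 17, 61 and 45 of the same sets. Of the 7091 clusters above the 75th percentile of mean intensity, mouse 4_8 was the highest for 2897 and mouse 5_1 for 3583. The median deviation over the transcript clusters above the 75th percentile of mean intensity was 0.08 in mouse 4_8 and 0.10 in mouse 5_1, and over all clusters it was 0.03 in mouse 4_8 and -0.03 in mouse 5_1. Their arrays had mean intensities of 583.9 and 575.2, and those of the other mice lay between 539.6 and 575. Within groups, the median correlation between pairs of members over the 15 mice was 0.48, and over 13 mice without mice 4_8 and 5_1 it was 0.16. For the cytosolic ribosomal proteins these medians were 0.55 and 0.38. The points of these correlations share an array and its normalization. Values without these mice stand beside the medians of the members and of each complex.

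**Figure D2:**
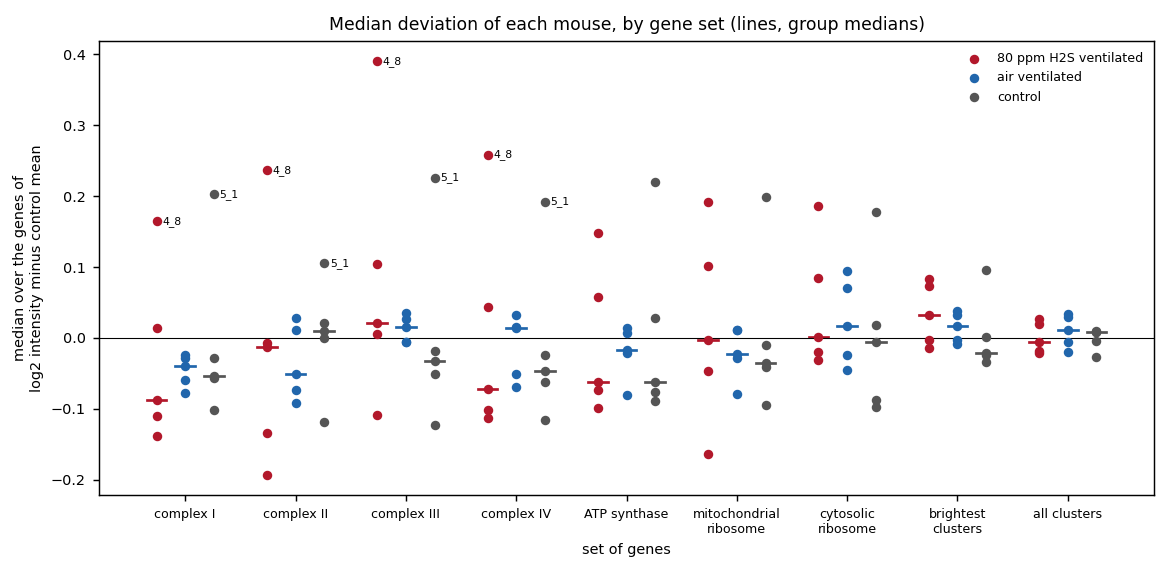
Median over the genes of a set of the log2 intensity minus the control mean (vertical axis), 1 point per mouse, for the 4 complexes and 5 comparison sets (horizontal axis), with a line at each group's median. Mice 4_8 (0.39 in complex III) and 5_1 (0.23) lie above the other mice of their groups in each complex, while the median over all clusters lies near 0 in every mouse.

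Relative to control, ventilation with H2S left 66 of 66 members uncalled, as did ventilation with air alone and the direct comparison of H2S with air (limma, adjusted p under 0.05 over all 28361 transcript clusters). With H2S, 0 members rose, against 3.92% of all clusters, and 0 fell, against 3.93%. With air, 0 rose, against 1.56%, and 0 fell, against 1.89%. Between H2S and air, 0 were higher, against 0.0705%, and 0 lower, against 0.00705%. The smallest adjusted p of a member was 0.16 with H2S, 0.293 with air and 0.975 between H2S and air. Both comparisons with control used the same 5 control mice. Because the lobe was measured whole, fewer cells of a type and less RNA per cell cannot be told apart.

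Weaker criteria gave few members as well. At an unadjusted p under 0.05, 1 member was higher with H2S (Cox6a2), against 10.1% of all clusters, and 2 were lower (Ndufs4 and Ndufa4l2), against 10.6%. With air 0 were higher, against 6.47%, and 2 were lower (Ndufa2 and Ndufv3), against 7.51%. Between H2S and air 0 were higher and 0 lower, against 2.97% and 2.71%. The methods' CyberT test with Benjamini-Hochberg adjustment also called 0 members in each comparison. The study required an effect size of 1.7 or more, an adjusted p of at most 0.1 and an unadjusted p of at most 0.005. With the effect size read here as a fold, limma called 0 members at these thresholds in any comparison. Of all clusters it called 1.45% with H2S, 0.959% with air and 0.0599% between H2S and air. With H2S, every mouse lay above every control mouse for 0 members, against 4.11% of clusters, and below for 1, Ndufs4, against 4.09%. With air the counts were 0 above, against 2.65%, and 1 below, Cox4i2, against 2.9%. Between H2S and air 0 members separated upwards and 0 downwards, against 0.691% and 0.511%.

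The arrays were precise enough to bound most of these differences. The standard error of a member's log2 fold change had a median of 0.10 and ranged between 0.06 and 0.22. The 95% interval of a member, taken alone, lay within 1.5-fold in either direction for 65 of 66 members with H2S, for 64 with air and for 65 between H2S and air. The exceptions were Cox7a1 with H2S, Cox7b2 and Cox8b with air and Cox8b between H2S and air. Among all clusters the share within 1.5-fold was 84.3% with H2S, 87.5% with air and 90.6% between H2S and air. Within 1.25-fold lay 43 members with H2S, 49 with air and 52 between H2S and air. Within 1.7-fold, the study's effect size threshold when read as a fold, lay all 66 in each comparison. Within its interval, the difference of a member was not resolved further with 5 mice per group.

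**Figure D3:**
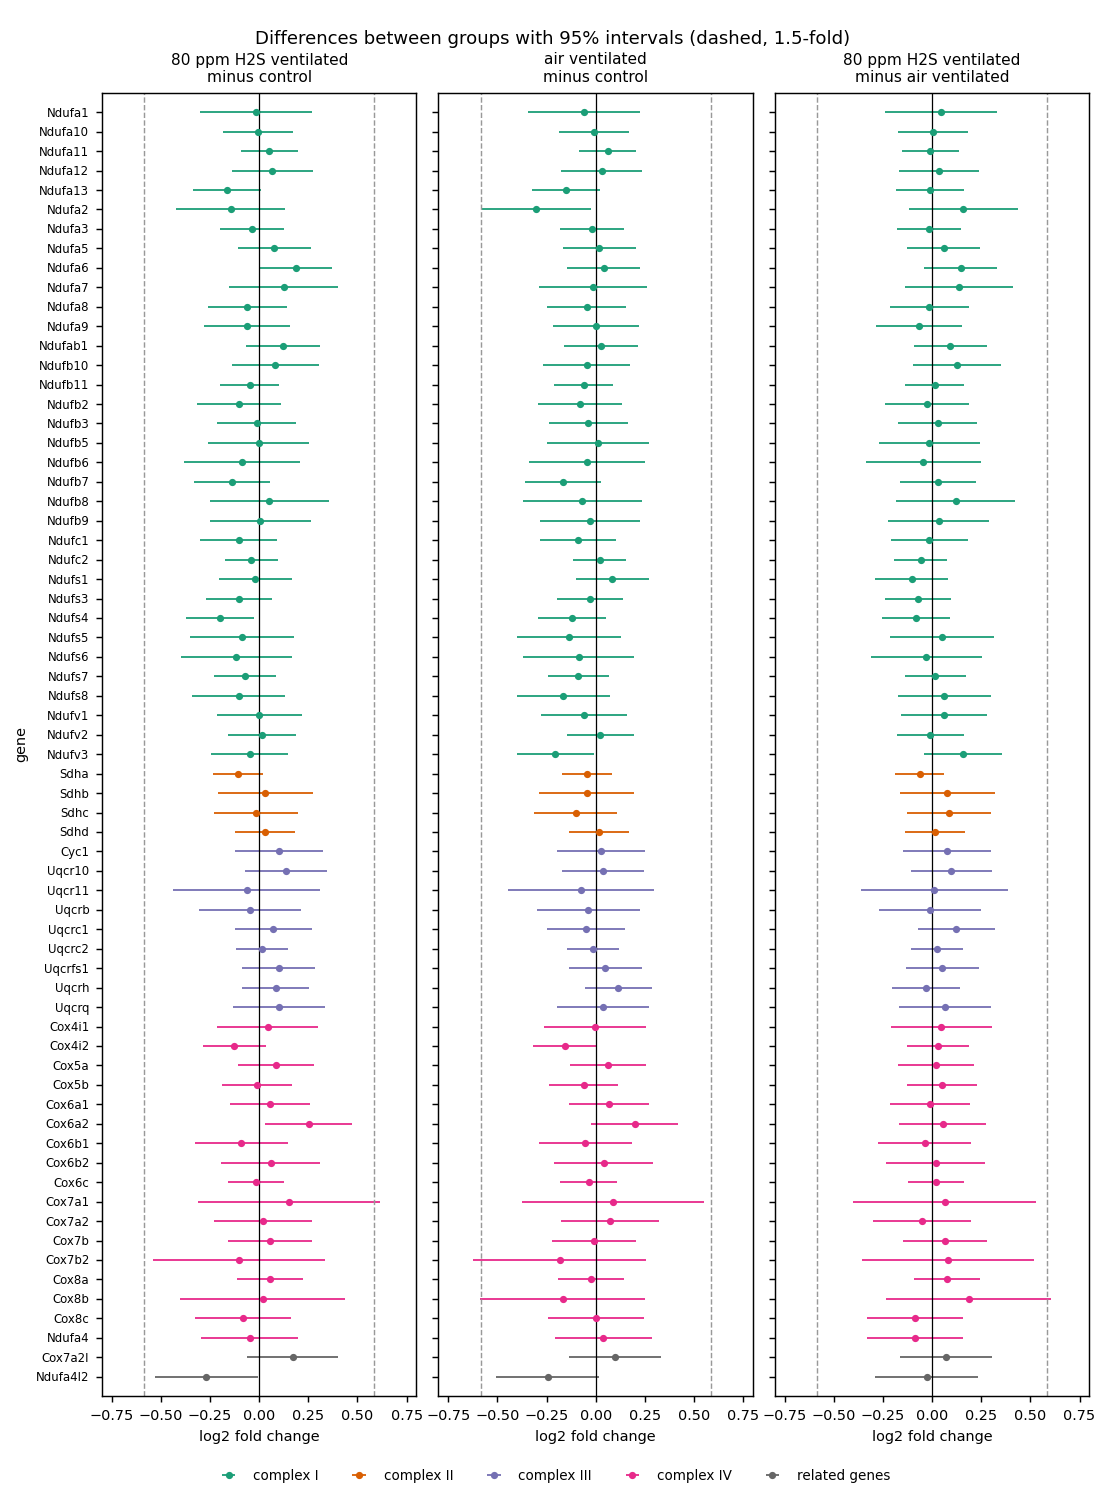
Log2 fold change of 66 genes with its 95% interval (horizontal axis, limma) for H2S minus control, air minus control and H2S minus air, coloured by complex, with dashed lines at 1.5-fold. The intervals of 65, 64 and 65 genes lie inside the dashed lines, and the widest belong to isoforms such as Cox7a1, Cox7b2 and Cox8b.

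The 34 genes of complex I had median log2 fold changes of -0.04 with H2S and -0.04 with air, and of 0.02 between H2S and air. Without mouse 5_1 the medians were 0.01 with H2S and 0.02 with air, and without mouse 4_8 they were -0.09 with H2S and -0.03 between H2S and air, so that the sign turned with 1 mouse. The medians over all clusters were 0.002 with H2S, 0.01 with air and -0.01 between H2S and air. With air, 24 of the 34 values were negative, and with H2S 23. The core subunits described here, which belong to the conserved centre of the complex, were Ndufs1, Ndufs3, Ndufs7, Ndufs8, Ndufv1 and Ndufv2. Their log2 fold changes with H2S lay between -0.10 (Ndufs8, an iron-sulfur subunit) and 0.01 (Ndufv2, an iron-sulfur subunit of the NADH-oxidising module). With air they lay between -0.17 (Ndufs8) and 0.08 (Ndufs1), and between H2S and air they lay between -0.10 (Ndufs1) and 0.06 (Ndufs8). Ndufv1, which binds NADH and its flavin, averaged 1024 ± 145 in H2S-ventilated, 976 ± 58.7 in air-ventilated and 1022 ± 132 in control mice (SD, n = 5 each).

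Among the supernumerary subunits of complex I, which surround the core, Ndufs4 had the lowest log2 fold change with H2S. Ndufs4 helps to fasten the NADH-oxidising module. Its intensities were 1498, 1474, 1495, 1382 and 1254 in the H2S-ventilated mice, 1278, 1565, 1599, 1440.1 and 1646 in the air-ventilated mice and 1582, 1619, 1762, 1526 and 1666 in the control mice. All 5 H2S-ventilated mice lay below all 5 control mice, and the air-ventilated mice overlapped both. The log2 fold change of Ndufs4 was -0.20 ± 0.08 (SE, limma adjusted p = 0.16) with H2S and -0.12 ± 0.08 (SE, limma adjusted p = 0.613) with air. Ndufa6, a supernumerary subunit of the quinone module, had the highest log2 fold change of complex I with H2S, 0.19 ± 0.09 (SE, limma adjusted p = 0.242). It averaged 1187 ± 114 in H2S-ventilated, 1074 ± 114 in air-ventilated and 1042 ± 71.3 in control mice, and the groups overlapped.

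With air, the lowest log2 fold change of complex I was that of Ndufa2, a supernumerary subunit of the NADH-oxidising module. Its intensities were 854, 823, 874, 1068 and 651 in the H2S-ventilated mice, 772, 689, 730.5, 822 and 775 in the air-ventilated mice and 913, 833, 1272, 799 and 911 in the control mice. Control mouse 5_1 stood far above the rest. The log2 fold change of Ndufa2 was -0.30 ± 0.13 (SE, limma adjusted p = 0.293) with air, -0.19 without mouse 5_1 (adjusted p = 0.522), and 0.16 ± 0.13 (SE, limma adjusted p = 0.997) between H2S and air. Ndufv3, a subunit of the same module, measured 567, 542, 592, 732 and 569 in the H2S-ventilated mice, 531, 592, 516, 495 and 548 in the air-ventilated mice and 592, 594, 739, 576 and 599 in the control mice. Mice 4_8 and 5_1 were again the highest of their groups. Its log2 fold change was -0.21 ± 0.09 (SE, limma adjusted p = 0.322) with air and 0.16 ± 0.09 (SE, limma adjusted p = 0.975) between H2S and air. The value with air was -0.14 without mouse 5_1, and that between H2S and air was 0.08 without mouse 4_8.

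Complex II, succinate dehydrogenase, also belongs to the citric acid cycle. Its 4 genes had median log2 fold changes of 0.01 with H2S, -0.04 with air and 0.05 between H2S and air. Without mouse 4_8 the medians were -0.09 with H2S and -0.01 between H2S and air, and without mouse 5_1 they were 0.03 with H2S and -0.01 with air. Sdha, the flavoprotein that oxidises succinate, measured 1934, 1953, 1866, 2034 and 1799 in the H2S-ventilated mice, 1917, 2064, 2076, 1936 and 2023 in the air-ventilated mice and 2093, 2096, 2095, 1938 and 2098 in the control mice. Its log2 fold change was -0.11 ± 0.06 (SE, limma adjusted p = 0.35) with H2S and -0.04 ± 0.06 (SE, limma adjusted p = 0.88) with air, and the groups overlapped through control mouse 6_5, which was low. Sdhb, the iron-sulfur subunit, averaged 767 ± 129 in H2S-ventilated, 721 ± 46.2 in air-ventilated and 749 ± 114 in control mice (SD, n = 5 each). The membrane anchors Sdhc and Sdhd had log2 fold changes of -0.02 and 0.03 with H2S and of -0.10 and 0.02 with air.

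Complex III, the cytochrome bc1 complex, had the highest median of the 4 complexes with H2S. The median log2 fold change of its 9 genes was 0.08 with H2S, 0.03 with air and 0.05 between H2S and air, and 7 of 9 values were positive with H2S. Without mouse 4_8 the H2S median was 0.01 and that between H2S and air -0.02, and without mouse 5_1 the medians were 0.13 with H2S and 0.07 with air. Cyc1, cytochrome c1, measured 1144, 1154, 1158, 1513 and 1010.0 in the H2S-ventilated mice, 1124, 1068, 1089, 1167 and 1174 in the air-ventilated mice and 1167, 1159, 1298, 941 and 991 in the control mice. Mouse 4_8 was the highest of all 15 for Cyc1, and the log2 fold change of Cyc1 with H2S was 0.10 ± 0.11 (SE, limma adjusted p = 0.68). Uqcrfs1, the Rieske iron-sulfur protein, had a log2 fold change of 0.10 ± 0.09 (SE, limma adjusted p = 0.612) with H2S and of 0.05 ± 0.09 (SE, limma adjusted p = 0.92) with air. Uqcr10, a small subunit, was the highest of complex III with H2S at 0.14 ± 0.10 (SE, limma adjusted p = 0.503) and Uqcr11 the lowest at -0.06 ± 0.18 (SE, limma adjusted p = 0.907). With air, Uqcrh, the hinge protein, was the highest at 0.12 ± 0.08 (SE, limma adjusted p = 0.63) and Uqcr11 again the lowest at -0.07. Between H2S and air the extremes were Uqcrc1, a core protein, at 0.12, and Uqcrh at -0.03.

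In complex IV, the 10 subunits common to tissues had median log2 fold changes of 0.03 with H2S, -0.01 with air and 0.02 between H2S and air. The 7 tissue isoforms had medians of 0.02 with H2S, 0.002 with air and 0.05 between H2S and air. The 17 genes together had medians of 0.02 with H2S, -0.004 with air and 0.03 between H2S and air. Without mouse 4_8 these were -0.06 with H2S and -0.04 between H2S and air, and without mouse 5_1 they were 0.09 with H2S and 0.02 with air, so that the sign turned with 1 mouse. Among the common subunits the values with H2S lay between -0.09 (Cox6b1) and 0.08 (Cox5a), and with air between -0.06 (Cox5b) and 0.07 (Cox7a2). Between H2S and air, Ndufa4 was the lowest of complex IV at -0.09 ± 0.12 (SE, limma adjusted p = 0.997) and Cox8b the highest at 0.19 ± 0.20 (SE, limma adjusted p = 0.997).

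Cox4i2 is the isoform of subunit 4 found at high level in lung, where in mice it is needed for the acute response of pulmonary vessels to low oxygen. Its intensities were 879, 1039, 823, 1034 and 955 in the H2S-ventilated mice, 936, 879, 957, 943 and 899.7 in the air-ventilated mice and 996, 992, 1121, 989 and 1052 in the control mice. All air-ventilated mice lay below all control mice, while 2 H2S-ventilated mice reached the control range. The log2 fold change of Cox4i2 was -0.13 ± 0.08 (SE, limma adjusted p = 0.388) with H2S, -0.16 ± 0.08 (SE, limma adjusted p = 0.366) with air and 0.03 ± 0.08 (SE, limma adjusted p = 0.997) between H2S and air. Cox4i1, the common isoform, measured 1206, 1072, 909, 1497 and 999 in the H2S-ventilated mice, 1075, 1138, 1108, 983 and 1124 in the air-ventilated mice and 1003, 981, 1338, 1003 and 1148 in the control mice. For Cox4i1 the groups overlapped, mice 4_8 and 5_1 were the highest of their groups, and the log2 fold change was 0.04 with H2S and -0.0036 with air.

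Cox6a2, Cox7a1 and Cox8b are the isoforms of heart and skeletal muscle. Cox6a2 measured 542, 493, 438, 607 and 486 in the H2S-ventilated mice, 591, 496, 473, 441 and 469 in the air-ventilated mice and 516, 424, 417, 388 and 405 in the control mice. It had the highest log2 fold change of complex IV in both comparisons with control, 0.25 ± 0.10 (SE, limma adjusted p = 0.169) with H2S and 0.20 ± 0.10 (SE, limma adjusted p = 0.436) with air, and the groups overlapped through control mouse 12_21. The second number of the labels runs over all groups. In the mice numbered 1 to 12 by it the log2 fold change with H2S was 0.43 (3 mice each, adjusted p = 0.0951), and in those numbered 20 to 28 it was -0.011 (2 mice each, adjusted p = 0.983). What these numbers stand for was not given in the sources used here. Its common counterpart Cox6a1 measured 1488, 1227, 1233, 1634 and 1208 in the H2S-ventilated mice, 1423, 1368, 1243, 1340.4 and 1417 in the air-ventilated mice and 1283, 1227, 1532, 1189.7 and 1275 in the control mice, with a log2 fold change of 0.06 with H2S.

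Cox7a1 measured 262, 237, 241, 566 and 226 in the H2S-ventilated mice, 352, 218, 324, 253 and 244 in the air-ventilated mice and 265, 275, 322, 228 and 211 in the control mice. Mouse 4_8 was at 566 against at most 262 in any other H2S-ventilated mouse, and the others overlapped the control range. The log2 fold change of Cox7a1 was 0.15 ± 0.22 (SE, limma adjusted p = 0.79) with H2S, and -0.09 without mouse 4_8 (adjusted p = 0.831). Cox8b measured 234, 231, 220.4, 438 and 171 in the H2S-ventilated mice, 236, 192, 246, 227 and 185 in the air-ventilated mice and 225, 259, 327, 194 and 227 in the control mice, with mouse 4_8 again the highest. Its log2 fold change with H2S was 0.02 ± 0.20 (SE, limma adjusted p = 0.979), and -0.19 without mouse 4_8 (adjusted p = 0.555). The common counterpart of Cox7a1, Cox7a2, measured 1022, 924, 914, 1284 and 946 in the H2S-ventilated mice, 1033, 1149, 1058, 949 and 1057 in the air-ventilated mice and 908, 818, 1217, 934 and 1156 in the control mice. Cox8a, the common counterpart of Cox8b, averaged 2594 ± 155 in H2S-ventilated, 2458 ± 131 in air-ventilated and 2507 ± 265 in control mice (SD, n = 5 each).

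Markers of cardiac muscle, which sheathes the large pulmonary veins of mice, moved with Cox7a1 over the mice. Of 11 markers, among them Myh6, Myl7, Tnni3 and Nppa, mouse 4_8 was the highest of its group for 11, air-ventilated mouse 11_6 for 8 and control mouse 5_1 for 7. Over all 28361 clusters these mice were the highest for 8084, 7261 and 7804. The summed intensity of the 11 markers was 6351 to 13670 in H2S-ventilated mice, 7320 to 11417 in air-ventilated mice and 7804.5 to 10594 in control mice. In each group the mouse with the highest sum, 4_8, 11_6 or 5_1, also had the highest Cox7a1. For Nppa, atrial natriuretic peptide, mouse 4_8 measured 1107 and the other H2S-ventilated mice 208.5 to 360.3. The summed intensity of 5 skeletal muscle markers was 688 to 1087 in H2S-ventilated, 669 to 884 in air-ventilated and 709 to 819 in control mice. The summed intensity of 5 brown fat markers was 361 to 619 in H2S-ventilated, 329.8 to 535 in air-ventilated and 355 to 518 in control mice, and it was highest in the same mouse of each group, 4_8, 11_6 or 5_1. Of these markers Cidea rose with H2S (log2 fold change 0.47 ± 0.13, SE, limma adjusted p = 0.0412), while Ucp1, which defines brown fat, lay between 48.5 and 76.3 in all 15 mice. The part of muscle or fat tissue in the values of these isoforms was not tested.

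**Figure D4:**
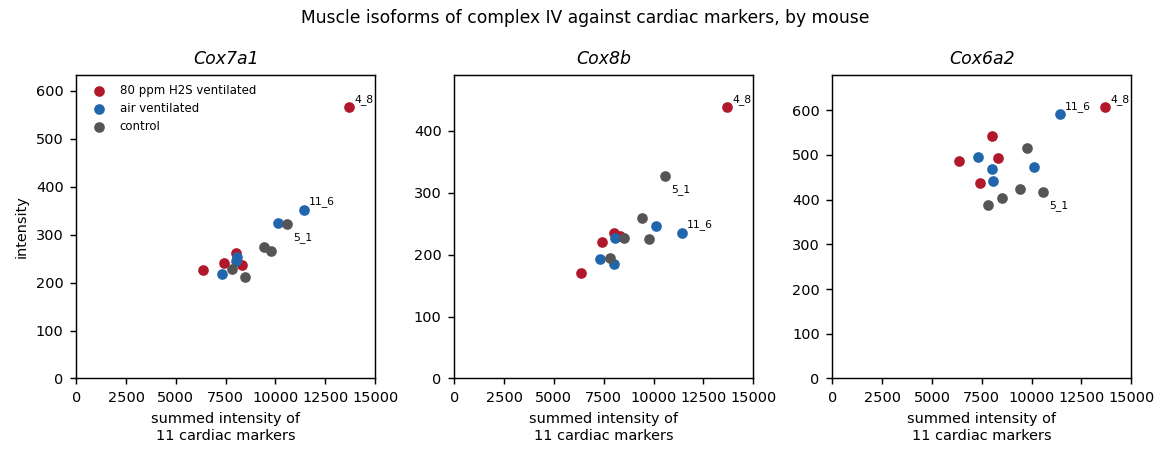
Intensity of Cox7a1, Cox8b and Cox6a2 (vertical axes) against the summed intensity of 11 cardiac markers (horizontal axes), 1 point per mouse, coloured by group. H2S-ventilated mouse 4_8, at a sum of 13670, lies apart in Cox7a1 (566) and Cox8b (438), and for Cox6a2 the ventilated mice with low sums lie among or above the controls.

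The isoforms of testis gave no separation of the groups. Cox6b2 measured 181, 190.0, 169.9, 214 and 163 in the H2S-ventilated mice, 175, 171, 192, 214 and 156 in the air-ventilated mice and 213, 188, 194, 140.4 and 153 in the control mice. Its common counterpart Cox6b1 measured 1900.3, 1651, 1762, 2323 and 1627 in the H2S-ventilated mice, 1917, 1622, 2054, 1836 and 2033 in the air-ventilated mice and 1892, 1959, 2406, 1683 and 1913 in the control mice. Cox8c measured 133, 129, 137, 142 and 172 in the H2S-ventilated mice, 166, 150.1, 158, 137 and 142 in the air-ventilated mice and 131, 136, 129, 186 and 178 in the control mice. The groups overlapped for all 3, and the log2 fold changes with H2S were 0.06, -0.09 and -0.08. Cox7b2 was the lowest of complex IV with air at -0.18 ± 0.21 (SE, limma adjusted p = 0.829). Its intensities were very low, 13.0 to 28.3 over the mice, where the array medians were 179.1 to 187.4. The summed intensity of 4 testis markers was 263 to 326 in H2S-ventilated, 251 to 328 in air-ventilated and 244 to 321 in control mice.

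Outside the 4 complexes, Ndufa4l2, a relative of Ndufa4 that is induced by hypoxia-inducible factor, had the lowest log2 fold change with H2S of all members. It measured 243, 276, 280.1, 237 and 220.4 in the H2S-ventilated mice, 212, 232, 280.0, 333 and 236 in the air-ventilated mice and 292, 358, 332, 282 and 256 in the control mice. The groups overlapped, and its log2 fold change was -0.27 ± 0.12 (SE, limma adjusted p = 0.224) with H2S and -0.24 ± 0.12 (SE, limma adjusted p = 0.415) with air. Cox7a2l, which takes part in joining complexes III and IV into supercomplexes, had a log2 fold change of 0.17 ± 0.11 (SE, limma adjusted p = 0.442) with H2S and 0.10 ± 0.11 (SE, limma adjusted p = 0.822) with air.

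Leaving out mice 4_8 and 5_1 together gave 0 called members in each comparison. The median over all 66 members was -0.01 with H2S, -0.03 with air and 0.03 between H2S and air with all mice, and without these 2 mice it was -0.01 with H2S, 0.02 with air and -0.03 between H2S and air. At an unadjusted p under 0.05, 0 members were then higher and 0 lower with H2S, and 1 was higher and 1 lower with air. Without mouse 5_1 alone, 5 members were higher and 0 lower with H2S at that level, and without mouse 4_8 alone 0 were higher and 2 lower. With all mice, 10.1% of all clusters were higher and 10.6% lower with H2S at that level, and 6.47% and 7.51% with air. The shares of all clusters in these smaller fits were not taken, so the counts are not read as a trait of the members.

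Other genes of the pathway were tested in the same fit. None of the 17 ATP synthase subunits and neither cytochrome c gene was called in any comparison, with ATP synthase medians of -0.01 with H2S, -0.02 with air and 0.02 between H2S and air. Only 2 mitochondrially encoded subunits had clusters with 1 symbol, ND3 of complex I and COX2 of complex IV, and neither was called. Their log2 fold changes with H2S were -0.09 ± 0.10 and -0.03 ± 0.11 (SE, limma adjusted p = 0.737 and 0.938). A second cluster of ND3, which was dimmer, had the opposite sign at 0.09 ± 0.14 (SE, limma adjusted p = 0.81), and a second cluster of COX2 had -0.03 ± 0.10 (SE, limma adjusted p = 0.927). In contrast with the other sets, these 2 genes were low in mouse 4_8, with a median deviation of -0.28. They were also low in air-ventilated mouse 34_22 at -0.29 and H2S-ventilated mouse 15_20 at -0.22. Beside the calls that follow, 3.92% of all clusters rose and 3.93% fell with H2S, and 1.56% rose and 1.89% fell with air. Of 40 assembly factors measured, 1 rose and 2 fell with H2S, and 0 rose and 1 fell with air. Such small counts do not set these lists apart from all clusters. Ttc19, which acts on complex III, had a log2 fold change of 0.24 ± 0.06 (SE, limma adjusted p = 0.0279) with H2S. Acad9, an assembly factor of complex I, had a log2 fold change of -0.30 ± 0.08 (SE, limma adjusted p = 0.0242) with H2S. Ndufaf6, an assembly factor of complex I, had a log2 fold change of -0.29 ± 0.08 (SE, limma adjusted p = 0.0368) with H2S. With air the value of Ndufaf6 was -0.39 ± 0.08 (SE, limma adjusted p = 0.0128). Of 12 genes of the citric acid cycle, 1 rose with H2S, Fh1, fumarase, at 0.35 ± 0.09 (SE, limma adjusted p = 0.0305), and 0 were called with air. Of 77 mitochondrial ribosomal proteins, 1 rose with H2S, Mrpl32 at 0.30 ± 0.08 (SE, limma adjusted p = 0.031), and 0 were called with air. The 54 cytosolic ribosomal proteins gave 0 calls in each comparison. No gene of these lists was called between H2S and air.

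Ppargc1a, the coactivator known for inducing respiratory chain genes, had values of 708, 1199 and 1731 (lowest, median and highest) in H2S-ventilated mice, against 194, 229 and 252 in control mice, in its brighter cluster. Its log2 fold change with H2S was 2.33 ± 0.17 (SE, limma adjusted p = 4.67e-06), while its air-ventilated mice lay between 225 and 266. For all 66 members the interval of the group log2 fold change with H2S lay within 1.7-fold of control. These intervals bound differences of group means and not values of single mice. For Cox7a1, H2S-ventilated mouse 4_8 measured 566, against a control mean of 260.

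For 11 members more than 1 cluster carried the symbol, some of which may read near-identical pseudogene copies, and 6 clusters that named a member of these families together with other symbols were not used. The other clusters of the 11 genes were likewise not called, and their log2 fold changes differed from those of the clusters used by at most 0.11. Between the mice numbered 1 to 12 and those numbered 20 to 28, 6 of 66 members differed (Cox7b, Ndufa4l2, Ndufb5, Ndufb6, Ndufs6 and Uqcrb, 9.09%), against 6.26% of all clusters, and each group held 3 mice of the first and 2 of the second set. The 6 genes that define alveolar type II cells had summed intensities of 46881 to 48662 in H2S-ventilated, 46578 to 48614 in air-ventilated and 46172 to 48368 in control mice. Of these 6 genes Abca3, the lipid transporter of lamellar bodies, fell with H2S (log2 fold change -0.31 ± 0.08, SE, limma adjusted p = 0.0285). Of 4 endothelial markers Kdr and Tie1 fell with H2S and Kdr with air (limma), and their sum was 11172 to 13182 in H2S-ventilated, 11774 to 13213.5 in air-ventilated and 12853 to 15174 in control mice. All 4 B cell markers measured fell in both ventilated groups relative to control (limma), and of 5 neutrophil markers 2 rose with H2S and 1 with air. The sum of 4 B cell markers was 860 to 1855 in H2S-ventilated, 928 to 2466 in air-ventilated and 2616 to 4525 in control mice, and that of the neutrophil markers was 7170 to 13682 in H2S-ventilated, 7693 to 11388.5 in air-ventilated and 4573 to 9125 in control mice. The part of such differences in the members' values was not tested.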

How the data were processed

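RNA of 15 lung lobes was measured on Affymetrix whole-transcript arrays, 1 per mouse. Array images were read with Command Console 3.0. In Genedata Expressionist Refiner 6.1 the authors corrected the background by GC content, using the anti-genomic probes, normalized by quantiles and summarized probes with RMA, and they kept main and unmapped transcripts of annotation NA32. The values deposited by the authors are intensity values on a linear scale. The genome build of the array annotation was not given in the sources used here. Quantile normalization gives all arrays nearly the same distribution, so a shift of all genes cannot be seen in such values.

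Of 28361 transcript clusters, 21780 carried 1 symbol in the platform table used here, 1617 several and 4964 none, and 0 deposited columns were left unused. Intensities were transformed to log2 and fitted over all clusters and all 15 arrays with no covariate by limma (version 3.58.1, R 4.3.3), using lmFit, contrasts.fit and eBayes. P-values were adjusted over all clusters by Benjamini-Hochberg and clusters called at an adjusted p under 0.05. CyberT (confidence 15, window 101), the methods' test, was one alternative, and others were weights per array, a trended variance, other normalizations and filters, the mean of a gene's clusters, the label numbers as a block in 2 ways and leaving out each mouse. The scripts were tested on simulated data. The number of arrays limits the precision.

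The genes named were members called in any comparison, the extremes of each complex, the isoform pairs of complex IV and the core subunits. The members below an unadjusted p of 0.05 or separating the groups were named after their values were seen, as were mice 4_8 and 5_1, Ppargc1a and the promoter motifs. The members and lists were chosen with earlier results of these data known. Cox7c and Ndufb4 were not analysed here. Promoter sequences are from RefSeq, build GRCm38.p6. Plots were made with matplotlib 3.10.9 under Python 3.11.15.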

Additional observations from a re-analysis of the deposited data

Results flagged for a closer look

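In 18 of 210 groups of 5 values examined, over the 66 genes and the medians of the 4 complexes, 1 mouse lay so far from the others that its gap to the nearest exceeded Dixon's 95% critical share of the whole range on the log2 scale. Chance flags about 1 in 20 such groups, and genes measured in the same mouse are not independent. In H2S-ventilated mouse 4_8, Cox7a1 was high at 566 (others 226 to 262) and Ndufs3 at 1437.5 (others 1264 to 1291). In air-ventilated mouse 12_10, Cox8a was low at 2227 (others 2486 to 2551.5), Ndufab1 at 494 (others 582.5 to 599.7), Ndufb9 at 939 (others 1064.5 to 1092) and Uqcrfs1 at 322 (others 353 to 357). In air-ventilated mouse 34_22, Uqcrc2 was low at 2863 (others 3018 to 3078), and in air-ventilated mouse 6_2, Sdhb was high at 802 (others 692 to 713).

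Control mouse 5_1 was high in the median of complex I at 0.20 (others -0.10 to -0.03) and in 8 genes. It measured 218 for Ndufa1 (others 152 to 167), 1272 for Ndufa2 (others 799 to 913), 2491 for Ndufb11 (others 2099.5 to 2206) and 214 for Ndufb2 (others 160.3 to 169). It measured 1453 for Ndufb9 (others 941 to 1039), 1662 for Ndufs3 (others 1302 to 1378), 739 for Ndufv3 (others 576 to 599) and 1654 for Uqcrc1 (others 1328 to 1397). In control mouse 6_5, Sdha was low at 1938 (others 2093 to 2098).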

How the results depend on the processing

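In every alternative run, 0 members were called in each comparison, and the medians of all members and of the complexes moved by less than the spread between mice. That spread, an SD of 0.10 (complex I) to 0.13 (complex III) in log2, included mice 4_8 and 5_1. It was larger than the medians themselves, so a median could change sign and still stay within it. The log2 fold change of Cox6a2 with H2S reversed to -0.011 in the mice numbered 20 to 28 alone (2 mice per group), and the cause was not tested. The median of all members with H2S lay between -0.07 (without mouse 4_8) and 0.04 (without mouse 5_1), and with air between -0.05 (mice numbered 1 to 12) and 0.02 (without mouse 5_1). The lowest adjusted p under any alternative was 0.0623 for Ndufs4 with H2S (range to 0.707), 0.0755 for Cox6a2 (to 0.983), 0.057 for Ndufa4l2 (to 0.594), 0.0995 for Ndufa2 with air (to 0.851) and 0.179 for Ndufv3 (to 0.797). The running numbers are not shared between groups, but in their order they form 5 sets of 1 mouse per group, which were used as a replicate block after seeing the data. Within sets, deviations from the group means correlated at -0.179 to 0.458, above 0.1 in 12 of 15 pairs. Among the mice of other groups, 6 of 15 mice correlated best with a mouse of their own set. The labels name no pairs, and the main fit held no term for the sets. Its p-values therefore ignore any effect shared within a set. With this replicate block 0 members were called in each comparison, and the smallest limma adjusted p was 0.057 (Ndufa4l2 with H2S, log2 fold change -0.27). Each set holds 1 mouse per group, so this block cannot change a log2 fold change or a median. The same holds for the block of mice numbered 1 to 12 and 20 to 28, which divides each group alike. Only standard errors and p-values can move. Over all clusters it called 2679 with H2S, against 2228 without the block, 1040 against 977 with air and 32 against 22 between H2S and air. With 5 arrays per group and a median standard error of 0.10 in log2, small differences of members could go uncalled. The adjusted threshold was stricter between H2S and air, where few clusters were called.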

Other observations

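The correlation between members within groups was lower without mice 4_8 and 5_1. Without them the median pairwise correlation was 0.14 over the 34 genes of complex I, 0.14 over the 17 of complex IV, 0.34 over the 9 of complex III and 0.54 over the 4 of complex II, against 0.45, 0.46, 0.68 and 0.63 with all mice. These are descriptions over 13 and 15 mice that share arrays and their normalization. The median standard deviation within groups was 0.15 on the log2 scale for the members and 0.17 for all clusters.

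The letters TATAAA, searched on both strands after the promoter sequences had been seen, stood in 7 of the members' 54 windows (13.0%), against 13.6% of all windows. The genes of these windows were Cox7b2, Cox8b, Ndufa3, Ndufa7, Ndufb7 and Ndufs7.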
